A study of Mus musculus with 6 samples.

Results

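The 10 genes described here make or carry the transmitters and peptides of amacrine cells, and were taken by name as 10 of the 52636 genes counted in single cells of the mouse retina. They are Gad1, Gad2, Slc32a1, Slc6a9, Tac1, Npy, Sst, Vip, Th and Chat. The retinas came from 12-month-old male mice of strain C57BL/6J, 3 Dram2 wt/wt and 3 Dram2 ko/ko, with replicate 3 of either genotype in batch 1 and replicates 1 and 2 in batch 2. The ko allele is a constitutive CRISPR/Cas9 deletion of exon 4, present in every cell of the animal, and the wt/wt mice carry no deletion. The labels do not say whether retinas came from separate mice or litters, so p-values measure the spread between these samples. Each cell was counted by unique molecular identifiers (UMIs, 1 per captured molecule) at the 3′ end of transcripts. The deposited annotation gives 1 of 5 types to 45746 of the 46375 cells: 42359 photoreceptors, 2083 interneurons, 942 glia, 246 mesenchymal cells and 116 cells of the retinal pigment epithelium (RPE). Depth was 3463728 to 6563762 UMIs per retina.

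Amacrine cells are inhibitory interneurons of the inner retina that shape the signal passed from bipolar cells to ganglion cells. Most release either GABA or glycine, and many add a peptide, dopamine or acetylcholine. Gad1 and Gad2 encode the enzymes that make GABA from glutamate, Slc32a1 the transporter that loads GABA and glycine into vesicles, and Slc6a9 the membrane transporter GlyT1, which takes up glycine. Tac1, Npy, Sst and Vip encode the precursors of substance P, neuropeptide Y, somatostatin and vasoactive intestinal peptide. Th encodes the rate-limiting enzyme of dopamine synthesis, and Chat the enzyme that makes acetylcholine in starburst amacrine cells.

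In GRCm38, Gad1 (ENSMUSG00000070880) lies at chr2:70553072-70602014 and Gad2 (ENSMUSG00000026787) at chr2:22622205-22693874, both on the plus strand. Slc32a1 (ENSMUSG00000037771, chr2:158610767-158615748) and Slc6a9 (ENSMUSG00000028542, chr4:117834506-117875198) are also on the plus strand. Of the peptide genes, Tac1 is at chr6:7554879-7565834, Npy at chr6:49822710-49829507, Vip at chr10:5639218-5647617 and Sst, on the minus strand, at chr16:23889573-23890958. Th (chr7:142892752-142931128) and Chat (chr14:32408203-32465989) are on the minus strand. On the other strand Gad1 is overlapped by Gad1os, Slc32a1 by Gm14205, Slc6a9 by Gm17114, Ccdc24 and B4galt2, and Chat by Gm2990, so reads there could be shared if strand was not used in counting. Gad2 overlaps Mir3967 and Gm23636 on its own strand. Slc18a3, the vesicular transporter of acetylcholine, lies within Chat on the same strand.

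The promoters of these genes differ in the cyclic AMP response element, the 8-base palindrome TGACGTCA through which CREB acts on several peptide genes. The windows searched, from RefSeq (GRCm38.p6), run from 250 bases before to 50 bases after a transcript start, on both strands, and all 10 genes were matched. The whole element was in the windows of Sst and Th and in 1.79% of 32851 windows of all genes. Only 5 bases of it, TGACG or CGTCA, were in windows of Gad2, Slc6a9 (1 of its 3 windows), Tac1, Vip and Chat, and 20.8% of all windows hold these 5 bases, those with the whole element included. The 4 stretches of 30 bases shown are those of the peptide and dopamine genes with a match, with the element or its 5 bases in capitals. They are Sst at chr16:23890874-23890903 (minus strand), Th at chr7:142900022-142900051 (minus strand), Tac1 at chr6:7555006-7555035 (plus strand) and Vip at chr10:5639127-5639156 (plus strand).
Sst: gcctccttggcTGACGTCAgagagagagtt
Th: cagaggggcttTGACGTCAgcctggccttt
Tac1: gctctacaggctCGTCAcgcctgagataaa
Vip: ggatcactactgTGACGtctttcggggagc
Relative to the RefSeq transcript starts of these windows, the whole element begins 48 bases before that of Sst (position 23890844) and 45 before that of Th (142899995), and the 5 bases begin 43 before that of Tac1 (7555061) and 79 before that of Vip (5639218). For Sst, Th and Tac1 these starts lie inside the outer gene bounds given above, so the stretches do too.

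Across the 5 cell types, UMIs of the GABA genes and of Slc32a1 were concentrated in interneurons. Interneurons held 263 of the 293 UMIs of Gad1 (89.8%), 78 of 87 of Gad2 (89.7%) and 627 of 667 of Slc32a1 (94.0%). On the CPM scale, a gene's UMIs over all UMIs of the summed cells times 1000000, Slc32a1 was 103 ± 83.1 in interneurons (SD, n = 6 retinas) and 1.40 ± 1.49 in photoreceptors. Gad1 was 34.9 ± 47.1 CPM in interneurons and at most 1.89 on average in any other type. Since the cell types were themselves found by clustering these counts, levels in them are described without a test.

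Slc6a9 was spread more widely. Its mean was 211 ± 180 CPM in interneurons, 105 ± 53.0 in RPE cells, 29.8 ± 7.56 in photoreceptors, 15.2 ± 8.22 in glia and 14.6 ± 8.89 in mesenchymal cells (SD, n = 6). Glia and mesenchymal cells did not differ beyond this spread, and RPE cells lay within the spread of interneurons, with only 17 UMIs in 116 cells. Photoreceptors held 646 Slc6a9 UMIs, 49 to 171 per retina, but only 33 UMIs of Slc32a1, 0 to 15 per retina. Slc6a9 thus made up 91.9% to 100% of the UMIs of both genes in photoreceptors of a retina, against 37.5% to 75.0% in interneurons. The lowest interneuron value, from ko/ko replicate 1, rests on 8 UMIs with an exact binomial 95% interval of 8.52% to 75.5%. After each cell of at least 300 UMIs was thinned to 300, 0.870% of photoreceptors and 4.16% of interneurons would hold a Slc6a9 UMI, and 0.0412% and 1.98% a Slc32a1 UMI. Unthinned, at medians of 397 to 523 UMIs per photoreceptor and 1527 to 2275 per interneuron, 637 of 42359 photoreceptors and 335 of 2083 interneurons held Slc6a9. Intervals and limits of this kind cover counting error only.

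Npy had its highest mean CPM in glia. It was 16.8 ± 10.3 CPM in glia (32 UMIs in 26 of 942 cells) and 7.54 ± 15.9 in interneurons (61 UMIs in 10 cells), which overlap within their spread (SD, n = 6). The glial UMIs came from 5 of the 6 retinas, whereas 51 of the interneuron UMIs came from 1 cell.

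Tac1 had 165 of its 195 UMIs in interneurons (84.6%) and Th 19 of 24 (79.2%). Sst had 0 UMIs in all 46375 cells, which allows a share of up to 0.00647% of cells with a UMI. Vip had 1 UMI, in an interneuron, and Chat had 1, in a photoreceptor. Chat was thus not detected in 2083 interneurons, which allows up to 0.144% of them to hold a UMI, and Slc18a3, its partner in acetylcholine release, had 0 UMIs there too.

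**Figure D1:**
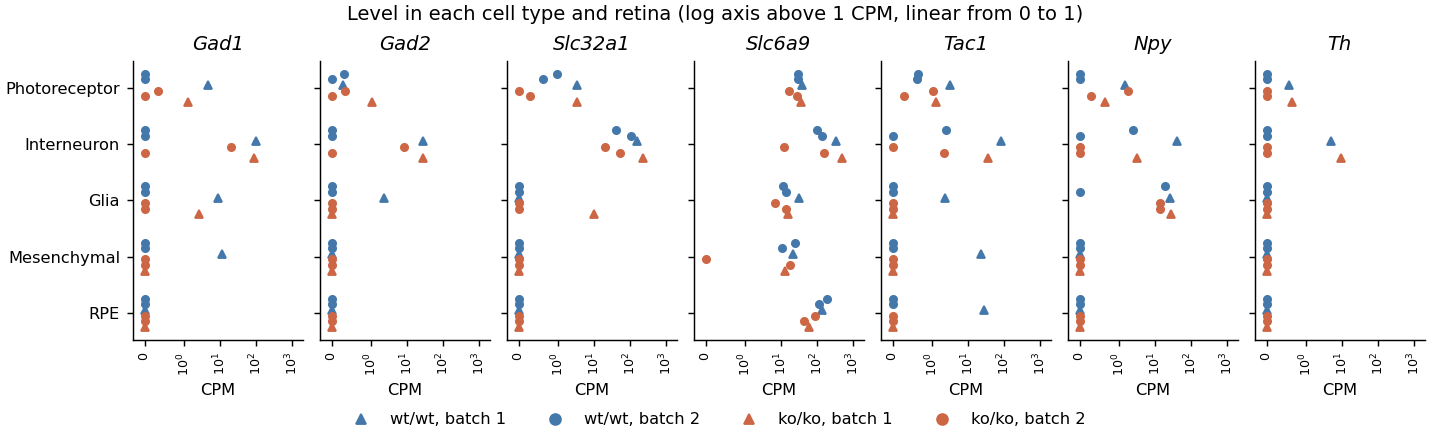
Level of 7 genes in each cell type, in CPM on an axis that is linear from 0 to 1 and logarithmic above; each point is 1 retina, coloured by genotype, with triangles for batch 1 and circles for batch 2. Slc32a1 is seen in interneurons of every retina, at 20.3 to 238 CPM, Slc6a9 is seen in every type, Npy also in glia, and Gad1, Gad2, Tac1 and Th are high mainly in interneurons of the batch 1 retinas.

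Retinas of the same genotype differed far more than the genotypes did. In interneurons Gad1 had 0, 0 and 143 UMIs in wt/wt replicates 1, 2 and 3, and 5, 0 and 115 in ko/ko replicates 1, 2 and 3. Gad2 had 0, 0 and 40 in wt/wt and 2, 0 and 36 in ko/ko. In both genotypes the high retina was replicate 3, the batch 1 retina, and the genotypes overlapped.

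Slc32a1 had 17, 44 and 224 UMIs in wt/wt (101.8 ± 59.6 CPM, SD, n = 3) and 5, 25 and 312 in ko/ko (104 ± 117 CPM). Slc6a9 had 43, 59 and 483 UMIs in wt/wt (196 ± 129 CPM) and 3, 75 and 663 in ko/ko (226 ± 253 CPM). These were the only genes of the 10 with UMIs in interneurons of all 6 retinas, ko/ko replicate 1 was the lowest for both, and the genotypes again overlapped.

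Of the peptide genes, Tac1 had 1, 0 and 117 UMIs in wt/wt interneurons and 0, 1 and 46 in ko/ko. Npy had 1, 0 and 56 in wt/wt and 0, 0 and 4 in ko/ko. Th had 0, 0 and 7 in wt/wt and 0, 0 and 12 in ko/ko. All 3 genes were again highest in the batch 1 retinas of each genotype. Vip was 0 except for 1 UMI in ko/ko replicate 3, and Sst and Chat were 0 in interneurons of every retina.

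**Figure D2:**
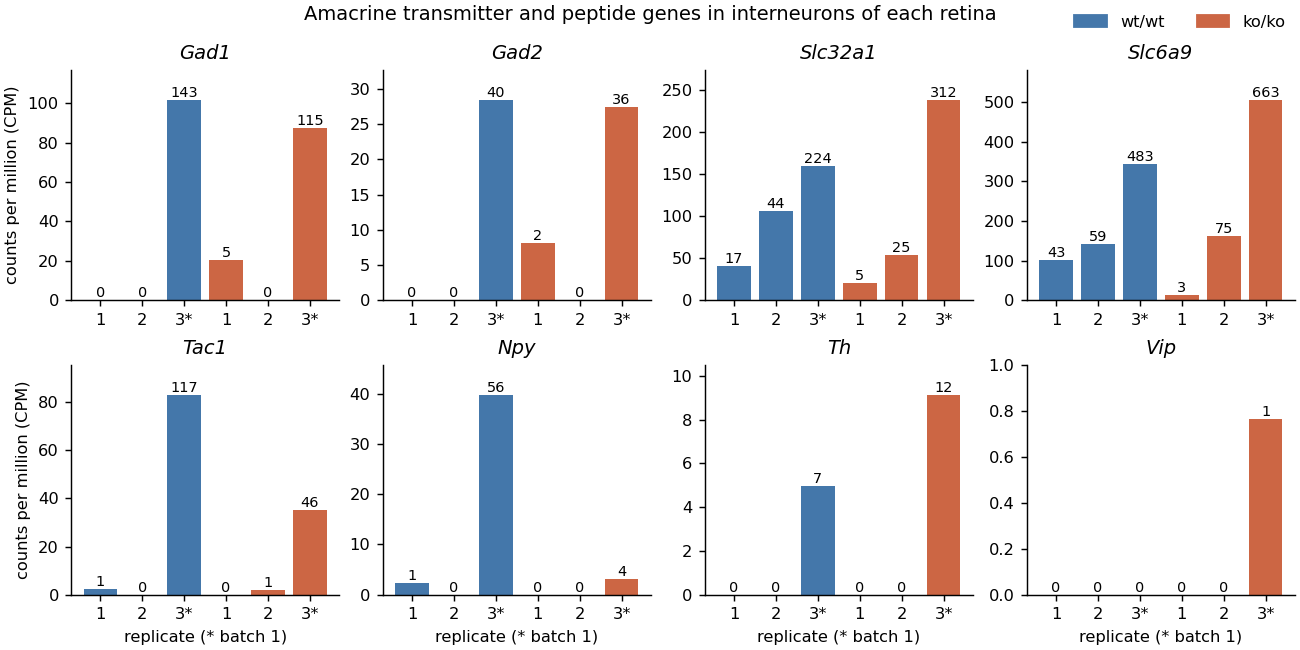
Level in interneurons of each retina, in CPM, for 8 genes; bars are single retinas, coloured by genotype, with the UMI count above each bar and an asterisk for batch 1. Replicate 3 has the highest bar within each genotype for every gene except Vip, which has 1 UMI in all.

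Between genotypes neither of the 2 members that could be tested in interneurons was called. UMIs were summed per retina and compared with edgeR's quasi-likelihood test, and a gene was called at a Benjamini-Hochberg adjusted p under 0.05. Of 7698 genes tested in interneurons, 0 were called (0%), with 86 at an unadjusted p under 0.05, and limma-voom and DESeq2 also called 0. Only Slc6a9 and Slc32a1 of the 10 genes passed the filter on low counts, so Gad1, Gad2, Tac1, Npy and Th have no genotype test in this fit. The ko/ko minus wt/wt log2 change was 0.26 (SE 0.75) for Slc6a9 and 0.13 (SE 0.65) for Slc32a1, with an edgeR adjusted p of 1.00 for each. The sign of both turned without ko/ko replicate 3, to -1.05 for Slc6a9 and -1.37 for Slc32a1, and without wt/wt replicate 1, to -0.0076 and -0.19.

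In batch 1, with 1 retina per genotype and hence no test, the ko/ko minus wt/wt log2 difference of CPM was 0.56 for Slc6a9, 0.58 for Slc32a1, -0.21 for Gad1, -0.05 for Gad2, -1.25 for Tac1 and -3.71 for Npy. For Th it was 0.88, from 7 UMIs in wt/wt and 12 in ko/ko. In batch 2, with 2 retinas per genotype, it was -0.49 for Slc6a9 and -0.98 for Slc32a1. The transporters thus differed in sign between the batches. For Slc6a9 the batch 2 sign rested on ko/ko replicate 1, with 3 UMIs in 1 cell (12.2 CPM). The other batch 2 ko/ko retina had 162 CPM, above both wt/wt retinas (102 and 142 CPM). For Slc32a1 that retina had 53.9 CPM, between the wt/wt values of 40.3 and 106 CPM. The Tac1 difference rested on a few cells: without the 3 highest cells of each retina, wt/wt replicate 3 had 7 UMIs and ko/ko replicate 3 had 10. The Npy difference in batch 1 came down to 1 wt/wt cell, without which wt/wt replicate 3 had 5 UMIs against 4 in ko/ko replicate 3.

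In photoreceptors Slc6a9 alone could be tested, and its log2 change was -0.20 (SE 0.30, edgeR adjusted p = 0.998), with 0 of 13053 genes called (0%) by edgeR, 109 at an unadjusted p under 0.05, and 0 by limma-voom or DESeq2. No member passed the filter in glia, mesenchymal cells or RPE cells.

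Dram2 itself cannot check the genotype labels, since the counted 3′ end lies outside exon 4. Summed over cells, it had 109 to 317 UMIs per wt/wt retina and 95 to 351 per ko/ko retina.

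Between batches the difference was large. Batch 1 gave 536 to 610 interneurons per retina with a median of 2106 to 2275 UMIs, and batch 2 gave 160 to 276 with 1527 to 1638.5. With genotype as a second term in edgeR, Slc6a9 was higher in batch 1 by 1.87 on the log2 scale (SE 0.33, edgeR adjusted p = 0.00139) and Slc32a1 by 1.73 (SE 0.32, edgeR adjusted p = 0.00166). The 2 retinas of batch 1 lay above all 4 of batch 2 for both genes, but the share of all genes that do so was not counted. The 2 calls were 2 of 2 members tested, where 291 of 7698 genes (3.78%) were higher in batch 1. The Slc6a9 call was lost in DESeq2 (log2 difference 2.04, adjusted p = 0.357), and both calls were lost without ko/ko replicate 3, with 1.48 for Slc6a9 and 1.11 for Slc32a1.

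The sparser members are given by their counts. Gad1 had 258 UMIs in batch 1 interneurons and 5 in batch 2, where 147 would be seen at the batch 1 level. Gad2 had 2 UMIs in batch 2 against 43.2 at that level, and Tac1 2 against 92.7. Npy had 1 against 34.1, of which most rests on the 1 wt/wt cell with 51 of the 60 batch 1 UMIs, and Th had 0 against 10.8. In all 5 the batches did not overlap in CPM, but the share of all genes that separate in this way was not counted. The non-overlap is therefore no result about these members. For Npy the gap was only 4 UMIs (3.05 CPM) in ko/ko replicate 3 against 1 UMI (2.37 CPM) in wt/wt replicate 1, where 3 UMIs come to 7.12 CPM. With all genes fitted and no filter, edgeR called 7 of the 8 members with a UMI higher in batch 1, where 865 of 25785 genes (3.35%) were. That fit had an infinite prior degree of freedom, so a gene's own spread between retinas did not enter its p, and DESeq2 without a filter called 3 of the 8. The unfiltered calls are therefore not used here.

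Genes of some other retinal cells moved with the batch as well. Of the amacrine list (Pax6, Tfap2b and others, with no member in it), 5 of the 6 genes tested were higher in batch 1, where 291 of 7698 genes (3.78%) were. Its summed level was 3192 to 3230 CPM in batch 1 and 907 to 1402 in batch 2. More than any other gene of the list, the noncoding Snhg11 made up this sum, which without it was 1359 to 1375 CPM and 269 to 430. Of the bipolar list, 7 of 12 were lower in batch 1, where 575 of 7698 genes (7.47%) were, and it summed to 8014 to 9103 CPM in batch 1 and 11464 to 14291 in batch 2. Of the ganglion cell list, both genes tested, Thy1 and Nefl, were higher, and it summed to 283 to 377 CPM and 4.07 to 74.5. Müller glia genes summed to 1107 to 1137 CPM in batch 1 interneurons and 557 to 777 in batch 2, with 2 of 5 tested higher. Of the cone list 3 of 7 were lower, with sums that overlapped between the batches. Of the rod list 1 of 9 was higher and 1 lower, and its sums in batch 1 (10480 to 10767 CPM) lay inside the range of batch 2 (8333 to 12277). Of the horizontal cell list 2 genes were tested and 0 called. Its sums in batch 1 (484 to 547 CPM) also lay inside the range of batch 2 (362 to 675). In the astrocyte and RPE lists 1 gene each was tested and 0 were called. Mitochondrial genes took 3.39% to 3.74% of the interneuron UMIs in batch 1 and 0.843% to 1.28% in batch 2. In these sums more cells of a type and more RNA of its genes per cell cannot be told apart, and the part of these lists, and of the mitochondrial share, in the members' difference was not tested.

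Cells were therefore also looked at singly. An interneuron was counted as amacrine-marked where it held at least 2 UMIs of the amacrine list and more of it than of the bipolar list. This took in 375 of 2083 interneurons. There were 643 interneurons within 1 UMI of either limit. Cells far outside the other limit are included, so 643 is not the number that 1 UMI would move. The mark is a range of a score and not a cell type. The marked cells were 6.54%, 7.88% and 28.5% of the interneurons in wt/wt replicates 1 to 3. In ko/ko they were 4 of 160, 7.25% and 26.3%. The mean share was 14.3% ± 12.3 for wt/wt retinas and 12.0% ± 12.6 for ko/ko retinas (SD, n = 3, two-sided exact permutation p = 0.60, smallest possible 0.10). The difference of -2.30 percentage points was -2.22 in batch 1 and -2.34 in batch 2. The batch 1 value shrank to -0.547 with cells thinned to 1000 UMIs, to -1.11 with stricter cells and to -0.0991 with Snhg11 left out of the amacrine list. In the same settings the batch 2 value was -3.37, -2.41 and -2.35, and the pooled value -2.43, -1.98 and -1.60. With the list as fixed, ko/ko was lower in 3 of 3 same-numbered pairs (exact permutation within pairs, p = 0.25, the smallest that 3 pairs allow). This depends on the numbering within batch 2. There wt/wt replicate 1 correlated more with ko/ko replicate 2 (r = 0.33) than with ko/ko replicate 1 (r = 0.10). Against ko/ko replicate 2 (7.25%), wt/wt replicate 1 (6.54%) was the lower one. The pooled difference turned to 4.81 without wt/wt replicate 3, to 2.46 without ko/ko replicate 1 and to 0.0874 without ko/ko replicate 2, which leave the batches unequal between genotypes. Within batch 2 the difference was then -2.34, 0.0352 and -4.71.

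The members sat mostly in these cells, although none was used to choose them. Slc6a9 was seen in 279 of the 375 (74.4%) and in 56 of the 1708 other interneurons (3.28%). Slc32a1 was seen in 258 (68.8%) and 8 (0.468%), Gad1 in 42 (11.2%) and 7 (0.410%), and Gad2 in 37 (9.87%) and 2 (0.117%). The marked cells were deeper, with a median of 2057 to 3427 UMIs per retina against 1516 to 2086 in the others.

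Within amacrine-marked cells neither transporter passed the test between batches. The batch 1 minus batch 2 log2 difference was -0.12 (SE 0.27, edgeR adjusted p = 0.828) for Slc6a9 and -0.29 (SE 0.25, edgeR adjusted p = 0.517) for Slc32a1. Gad1 was called higher in batch 1, by 3.11 (SE 0.64, edgeR adjusted p = 0.000833), where 41 of 866 genes (4.73%) were, but the batches overlapped. Its level in marked cells of batch 1 was 270 CPM for wt/wt and 228 for ko/ko, against 380 in ko/ko replicate 1 of batch 2, from 4 UMIs in 1 of 4 marked cells, and 0 in the other batch 2 retinas. Gad1 passed the filter on low counts through the batch 1 retinas, where it was high, and that 1 cell of ko/ko replicate 1. The list that marked the cells holds C1ql2, which had 222 UMIs in the 49 interneurons with Gad1 and 8 in the other 2034. The Gad1 call was lost without each retina except ko/ko replicate 1, with differences of 1.57 to 8.17, and DESeq2 gave it no adjusted p. Of marked cells in batch 1, 41 of 315 held Gad1 (13.0%), 26 of 174 in wt/wt and 15 of 141 in ko/ko. In batch 2 it was 1 of 60 (1.67%), with 0 of 17, 0 of 19 and 0 of 20 outside ko/ko replicate 1. Exact binomial 95% intervals of single retinas, which cover counting error only, had upper limits of 16.8% to 80.6% in batch 2. They overlapped those of batch 1, 10.0% to 21.1% for wt/wt and 6.08% to 16.9% for ko/ko.

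**Figure D3:**
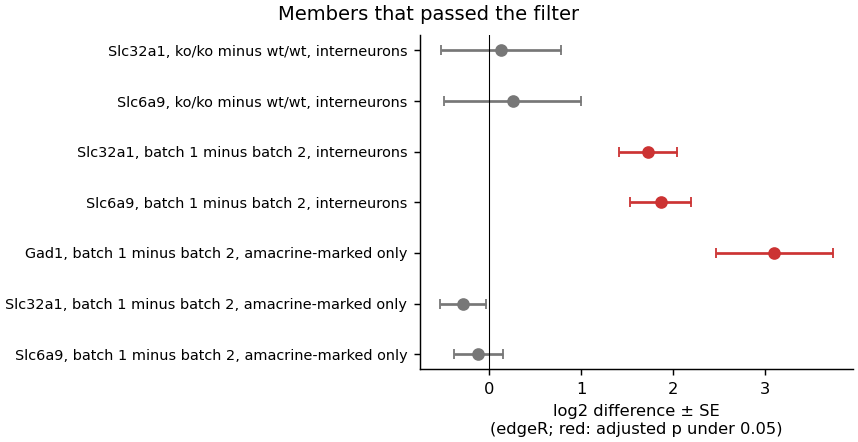
Log2 differences with standard errors from edgeR for the members that passed the filter on low counts, between genotypes and between batches; red points passed an adjusted p under 0.05. Slc6a9 and Slc32a1 pass between batches in all interneurons but not in amacrine-marked ones, and neither passes between genotypes. Gad1 is red in amacrine-marked cells, but it entered that fit through the batch 1 retinas, where it was high, and 1 cell of ko/ko replicate 1. Its call was lost without each retina except ko/ko replicate 1.

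Most marked cells held genes of one transmitter kind. Among marked cells of batch 1, 69.2% held Slc6a9 without Gad1 or Gad2, 12.7% held Gad1 or Gad2 without Slc6a9, 3.49% held both kinds and 14.6% neither. In wt/wt replicate 3 these shares were 64.9%, 14.4%, 4.02% and 16.7%, and in ko/ko replicate 3 74.5%, 10.6%, 2.84% and 12.1%. Slc6a9 alone was the widest class in each of these retinas, and cells with both kinds the smallest. In batch 2, with 60 marked cells in 4 retinas, 83.3% held Slc6a9 alone, 1 cell held a Gad gene alone and 0 held both. Marked cells with neither had a median of 1449 UMIs, against 3205 for Slc6a9 alone and 4204 for Gad alone.

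**Figure D4:**
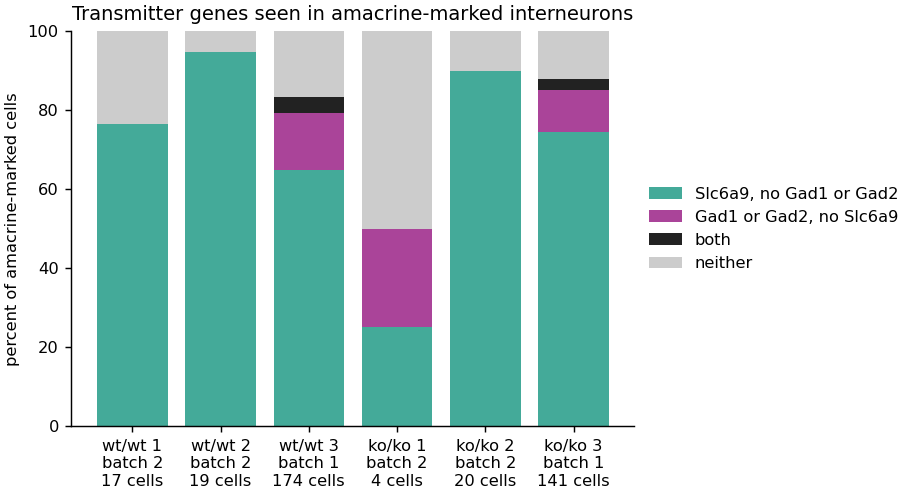
Share of amacrine-marked interneurons of each retina, in percent, by the transmitter genes seen in the cell; the number of cells stands under each bar. Slc6a9 without a Gad gene is the widest class in 5 of 6 retinas, and ko/ko replicate 1 has only 4 cells.

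Pairs of genes were counted cell by cell in all 2083 interneurons. Of 49 cells with Gad1, 27 also held Gad2 (55.1%), against 0.590% of the interneurons without Gad1. Slc32a1 was in 37 of the 49 (75.5%), and Slc6a9 in 5 (10.2%), against 16.2% of the interneurons without Gad1. Of 39 cells with Gad2, 10 held Slc6a9 (25.6%), against 15.9% of the interneurons without Gad2, most of which were not amacrine-marked. Among amacrine-marked cells Slc6a9 was in 9.52% of those with Gad1 and 82.6% of those without, and in 27.0% of those with Gad2 and 79.6% of those without. Of 335 cells with Slc6a9, 212 held Slc32a1 (63.3%) but only 5 held Gad1 (1.49%). Slc32a1, which serves both transmitters, was thus shared by the cells of either kind. Shares fell when depth was reduced. After thinning to 1000 UMIs, in the 1829 interneurons that reach it, 27.2% of cells with Gad1 held Gad2, 46.6% held Slc32a1 and 3.86% held Slc6a9.

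**Figure D5:**
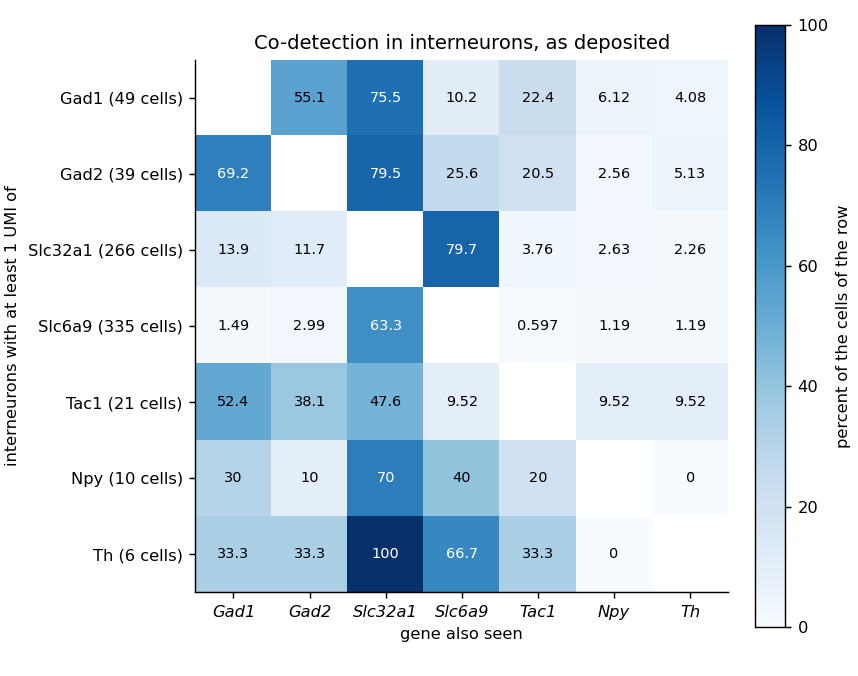
Percent of interneurons with at least 1 UMI of the row gene that also held the column gene, as deposited; the number of cells stands beside each row. Gad1 and Gad2 share most of their cells with each other and with Slc32a1, Slc6a9 with Slc32a1, and the rows of Npy and Th rest on 10 and 6 cells.

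Peptide genes came from very few cells. Tac1 was seen in 21 interneurons, 19 of them in batch 1, and 3 cells held 76.4% of its UMIs. Gad1 was in 11 of the 21 (52.4%), Slc32a1 in 10 and Slc6a9 in 2. The cell with the most Tac1, from wt/wt replicate 3, held 59 UMIs of Tac1 together with 51 of Npy, 2 of Gad1 and 2 of Slc32a1 among 5686 UMIs. It held 0 of Th, 0 of Slc6a9 and 0 of the ganglion cell list.

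The next 2 cells held Th beside Tac1. A wt/wt replicate 3 cell had 44 UMIs of Tac1, 5 of Th, 5 of Gad1, 3 of Gad2 and 5 of Slc32a1, and a ko/ko replicate 3 cell had 23 of Tac1, 9 of Th, 5 of Gad1, 3 of Gad2 and 12 of Slc32a1. They held 14 of the 19 Th UMIs of interneurons. The other 4 cells with Th had 1 or 2 UMIs of it, with Slc6a9 and Slc32a1 and without Gad1. Ddc, the next enzyme of dopamine synthesis, and Slc6a3, the dopamine transporter, had 0 UMIs in all interneurons, and Slc18a2, which loads dopamine into vesicles, had 8, of which 1 was in the wt/wt cell. Whether these cells are doublets was not tested.

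The next cells in Tac1 differed in kind. With 8 and 7 Tac1 UMIs they held 141 and 121 UMIs of the ganglion cell list, among them Sncg, Thy1 and Nefl, and 0 of Gad1, Gad2 and Slc32a1. They were nevertheless amacrine-marked, with 60 and 95 UMIs of that list.

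Genes seen with each member were ranked by their CPM in interneurons with the member against those without, among genes in at least 20% of the cells with the member and in at least 2 retinas. For Gad1 the top 5 were C1ql2, Pou3f3, Edn1, Pantr1 and Mn1, and C1ql2 had 222 UMIs in the 49 Gad1 cells and 8 in the other 2034. For Gad2 they were Mn1, Cxcl14, Edn1, Epb41l4a and Id4. For Slc32a1 they were Prdm13, C1ql1, Nhlh2, Necab3 and Spink13, with Nhlh2 at 467 CPM in cells with the member and 21.6 in the rest.

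For Slc6a9 the 5 were Necab3, Ptprf, Lypd1, Ebf3 and Lamp5. Lamp5 was in 71.9% of the 335 cells, at 780 CPM against 21.7. For Tac1 they included Nrgn, Cpne4, Edn1 and Stmn2, and each of these was seen with Tac1 in 2 retinas. Edn1 was among the top 5 for Gad1, Gad2 and Tac1, and cells with a member were deeper, with a median of 3851 UMIs for Gad1 against 1833.5 in the rest, and the part of depth in the ranking was not tested. C1ql1 and C1ql2 are also in the amacrine list.

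Other genes of the same pathways were counted from 6 lists, for which the background stays 3.78% higher and 7.47% lower in batch 1. Of 10 genes that handle GABA or glycine, 4 were tested and 0 were called in either direction between genotypes or batches. Slc6a5, the neuronal glycine transporter GlyT2, had 154 UMIs in interneurons, 142 of them in the batch 1 retinas, and did not pass the filter. Slc38a1, which carries glutamine, had a mean of 236 CPM.

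Of 8 dopamine genes, 3 were tested, and Qdpr, which recycles the cofactor of Th, was higher in batch 1 (log2 difference 1.52, SE 0.19, edgeR adjusted p = 7.3e-05). Of 14 other neuropeptides, 2 were tested. Cartpt was higher in batch 1, by 3.37 (SE 0.34, edgeR adjusted p = 9.04e-06), with 44, 49 and 1033 UMIs in wt/wt and 0, 31 and 1081 in ko/ko. Cck, at a mean of 409 CPM, was not called (0.15, SE 0.21, edgeR adjusted p = 0.703).

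Of 10 peptide processing genes, 9 were tested. Pcsk1n was higher in batch 1 (0.57, SE 0.16), and Chgb (-0.99, SE 0.19) and Pcsk2 (-0.65, SE 0.21) were lower, with edgeR adjusted p of 0.026, 0.0026 and 0.0499. Of 11 receptors of the members' peptides, Vipr2 alone was tested, and this receptor of VIP was lower in batch 1 (-1.21, SE 0.22, edgeR adjusted p = 0.00149), while its ligand had 1 UMI. Of 4 acetylcholine genes, Ache and Slc44a1 were tested and not called. None of these genes was called between genotypes in interneurons.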

How the data were processed

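Single cells of 6 retinas were measured with 10x Genomics 3′ chemistry. The deposited values are UMI counts per gene and cell, not normalized, which the authors made with Cell Ranger 3.1.0 on GRCm38, together with a table of each cell's sample, genotype, batch and type. Samples were grouped by genotype as the labels give it, and all count columns were mapped (0 left out). The labels' protocol text speaks of 1 sample per genotype, while 3 retinas per genotype are listed and used here. Cell barcodes shared between libraries were not analysed here, and no doublets were removed.

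The genes and lists were chosen with earlier results of these data known. Named were the 10 genes, the 5 top partners of each member seen in at least 20 interneurons, and genes of the fixed lists, of which some are not reported here. Counts were summed per retina and type, filtered with filterByExpr on genotype, scaled by TMM and tested with edgeR 4.0.16 (R 4.3.3), with Benjamini-Hochberg adjustment over all genes tested. Alternatives were limma-voom (limma 3.58.1), DESeq2 1.42.0, other scaling and filters, stricter cells, batch, and leaving out each retina. Batch comparisons had genotype as a covariate. Shares were compared by exact permutation, and thinning used the expected chance of keeping at least 1 UMI. Python 3.11.15, numpy 2.4.6, scipy 1.17.1 and pandas 2.3.3 were used. The edgeR, limma-voom and DESeq2 fits were tried on counts simulated from the interneuron sums. The thinning formula and the unpaired permutation test were tried on made-up values. The permutation within pairs and the fits in other cell types and in amacrine-marked cells were not tried in this way. Replicate numbers were checked for pairing by correlating deviations from the genotype means, which gave r = 0.10, 0.34 and 0.58 for the pairs numbered 1, 2 and 3, all over 0.1, the limit set for treating the numbers as pairs. Within batch 2 this does not separate the numbers, since wt/wt replicate 1 with ko/ko replicate 2 gave 0.33 and the reverse 0.016. Replicate 3 is also batch 1.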

Additional observations from a re-analysis of the deposited data

How the results depend on the processing

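Of 81 alternative values for the members' differences, those of the unfiltered batch fits of the sparse members not counted, 57 kept their direction and side of the threshold, 9 lost the call and 15 reversed. Slc32a1 between genotypes (0.13) reversed with limma-voom (-0.015), batch as a covariate in edgeR (-0.0026, but 0.22 with batch in limma-voom), the replicate block (-0.040) and amacrine-marked cells only (-0.082), and ranged from -1.37 to 0.69 on leaving out 1 retina. Slc6a9 (0.26) reversed with limma-voom (-0.24) and ranged from -1.05 to 0.99. None of these was called, and the replicate block changed no call between genotypes in interneurons. In amacrine-marked cells the batch difference reversed without a filter, to 0.35 for Slc32a1 and 0.50 for Slc6a9, and ranged from -0.69 to 0.32 and from -0.29 to 0.22 on leaving out 1 retina. The share of amacrine-marked cells (-2.30 percentage points) ranged from -9.44 to 4.81.

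Genes called between genotypes in interneurons were 0, and 1 without a filter, and in RPE cells 0, and 1 with DESeq2. Between batches 866 were called in interneurons, 373 with DESeq2 and 1463 without a filter. Leaving out 1 retina gave 223 to 2359 calls, the lowest without ko/ko replicate 3, the highest when ko/ko replicate 1 was absent, and 232 without wt/wt replicate 3. In amacrine-marked cells 104 were called, 203 with limma-voom, 29 with DESeq2 and 1 (without wt/wt replicate 3) to 161 (without ko/ko replicate 1) on leaving out 1 retina. The cause was not tested. The batch fits in amacrine-marked cells, the unfiltered batch fit with DESeq2 or with a retina left out, the test of the amacrine-marked share within pairs, and leaving Snhg11 out of the list were chosen after seeing the data. Limma-voom without a filter was not run on the data, since it made many false calls on simulated counts. Batch 2 interneurons held 5 UMIs of Gad1 and 2 each of Gad2 and Tac1, so every statement on these genes there rests on few counts. At the batch 1 level, 147, 43.2 and 92.7 UMIs would be seen at the depth of batch 2.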
